A study of Homo sapiens with 4 samples.

Results

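Complex I of the respiratory chain, NADH:ubiquinone oxidoreductase, was represented by 47 genes in a genome-wide CRISPR-Cas9 knockout screen. They were taken by name, as the gene symbols that begin with NDUFA, NDUFB, NDUFC, NDUFS, NDUFV, NDUFAB or NDUFAF followed by a digit, out of 19112 genes in the table. Each had 4 single guide RNAs (sgRNAs), which gave 188 of 76441 gene-targeting sgRNAs. The cells were A549, a human lung adenocarcinoma line, carrying the Brunello library, in which each sgRNA directs Cas9 to 1 gene. After 1 week in puromycin at 10 µg/ml all cells carried the library, and they were then kept for 3 weeks in 4 µM HQ461, the cytotoxic compound under study, or in its vehicle DMSO at 0.1% v/v. The screen asked which knockouts let cells survive HQ461. An sgRNA's read count follows the number of cells that carry that knockout. A lower scaled count with HQ461 than with DMSO stands for fewer such cells among the survivors, relative to the typical sgRNA of the library.

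The labels name 2 biological replicates of each condition, but the counts come as 1 column per condition. No source used here says how the replicates were put together. No difference between the columns therefore has a replicate check, no test between conditions could be made, and values are given as descriptions. The HQ461 column held 16127620 reads and the DMSO column 14428845. Intervals below are exact, at 95%, and cover counting error only, because PCR reads without molecular identifiers are not independent molecules. Counts were scaled by median-ratio size factors, which were 0.833 for HQ461 and 1.20 for DMSO, 1 was added, and the log2 ratio of HQ461 over DMSO was taken for each sgRNA. The value of a gene was the median over its 4 sgRNAs, which share a target and are not replicates of the treatment. Under this scaling an sgRNA with equal reads in both columns lies above 0. The NDUFS8 sgRNA with 34 reads in each, for example, had a log2 ratio of 0.51. A value of 0 thus marks the middle of all sgRNAs and not an equal share of reads. Under scaling by total counts, which compares shares, the median of all genes was -0.70.

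Complex I takes electrons from NADH, passes them to ubiquinone and pumps protons across the inner mitochondrial membrane, and so feeds ATP synthesis. Its core subunits, which carry the redox centers and the ubiquinone site or form the proton channels, descend from the bacterial enzyme. The core subunits of the membrane arm are made from mitochondrial DNA and are not targeted by this library. Accessory subunits surround the core, and assembly factors help to build the complex without staying in it. Cells without a working complex I grow by glycolysis when glucose is plentiful, but regenerate NAD+ and make aspartate less readily. The sequences of the library's sgRNAs and their cut sites within these genes were not analyzed here.

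Most complex I knockouts were less abundant with HQ461 than with DMSO. The gene value was below 0 for 36 of 47 genes (76.6%), against 51.3% of all 19111 genes with a read. Its median was -0.43, with an interquartile range from -0.79 to -0.03 and extremes of -1.90 and 2.59, whereas the median of all genes was -0.02. With sgRNAs under a mean normalized count of 30 left out, the complex I median was -0.21 and that of all genes 0.02. That mean takes in the HQ461 count, so this filter is not independent of the ratio. At least 2-fold lower, a log2 ratio of -1 or less, were 9 of the 47 genes (19.1%), against 7.69% of all genes. At least 2-fold higher was 1 of the 47 (2.13%), NDUFS7, against 9.01% of all genes. The 9 lower genes were NDUFAF4, NDUFB8, NDUFC1, NDUFA6, NDUFS6, NDUFB5, NDUFB11, NDUFS5 and NDUFAF1. None of them encodes a core subunit, but only 7 of the 47 genes do, so at the all-gene share of 7.69% this says little. Just outside the 2-fold limit lay NDUFA3 at -0.96 and NDUFB9 at -0.93.

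The knockouts of these genes were already scarce with DMSO, and this bears on how the shares are read. The median level of a complex I gene, taken as the median normalized count of its sgRNAs, was 61.2 with DMSO against 130 over all genes, and 40 of 47 genes lay below that all-gene median. With HQ461 it was 43.8 against 137, and 42 of 47 genes lay below. A count of the library before treatment was not analyzed here, so loss of these knockouts with DMSO and a low share in the starting library cannot be told apart. Genes of low level spread more widely and lay lower. Among the 4524 genes within the interquartile range of the complex I genes by the mean level of both columns (31.1 to 97.1), the median was -0.39 and 17.9% were at least 2-fold lower. The 23 complex I genes in that range had a median of -0.58, and 4 of them (17.4%) were at least 2-fold lower. None of the 23 was at least 2-fold higher, against 3.78%. By the DMSO level alone (33.9 to 116) the same comparison took in 6957 genes with a median of -0.06, of which 10.7% were at least 2-fold lower and 10.1% at least 2-fold higher. The 23 complex I genes in that range also had a median of -0.58, with 5 (21.7%) at least 2-fold lower and 0 at least 2-fold higher. The share of complex I genes past 2-fold on the low side was thus near that of genes of like mean level and above that of genes of like DMSO level. Both levels hold counts that also enter the ratio, so neither comparison is independent of it. The part of the level in the lower values was not tested.

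**Figure D1:**
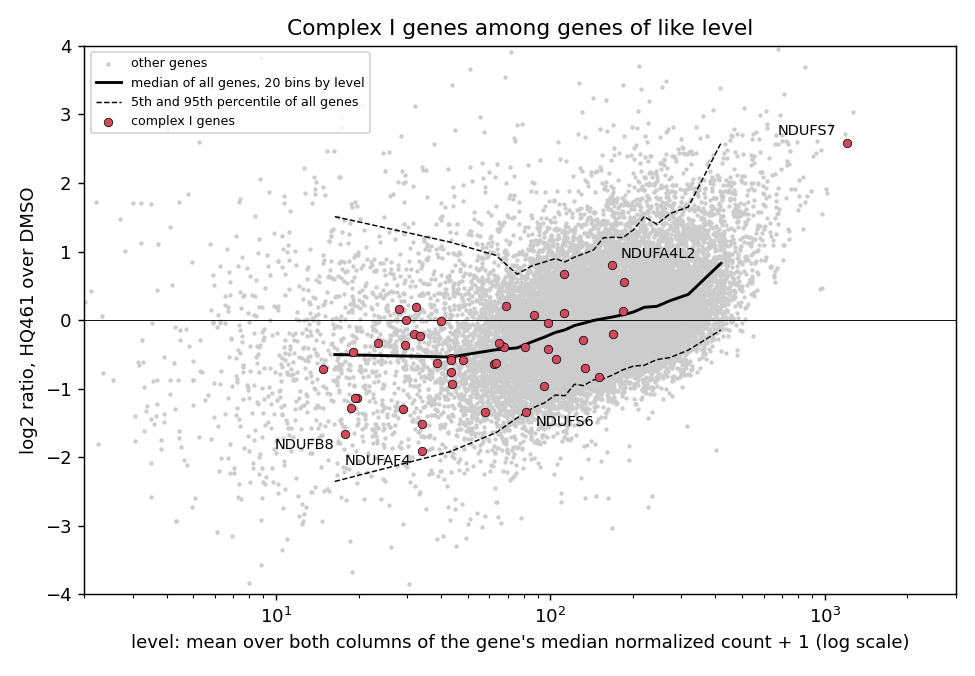
Each point is a gene. The horizontal axis is the mean over both columns of its median normalized count plus 1, on a log scale, and the vertical axis is its log2 ratio of HQ461 over DMSO. Red points are the 47 complex I genes, the solid line is the median and the dashed lines are the 5th and 95th percentile of all genes in 20 bins of level, and 19 genes, none of complex I, lie outside the axes. The median of all genes declines toward low levels, most red points lie left of 130 and below 0, and NDUFS7 stands apart at the upper right.

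The gene values are medians of the single sgRNAs, so the sgRNAs are not a separate check on them. The shares over all sgRNAs and all genes given here were not matched for level. The non-targeting controls, sgRNAs without a target in the genome, had 5th and 95th percentiles of -1.12 and 1.66 over the 997 with a read. Of the 188 complex I sgRNAs, 50 (26.6%) lay under the 5th percentile of the controls, against 15.4% of all targeting sgRNAs. Over the 95th percentile were 7 (3.72%), against 9.64%. The controls were far more abundant, with a median of 525 reads with DMSO and 368 with HQ461, while the complex I sgRNAs had medians of 67.5 and 32 reads. Counting error is larger at the lower reads of the complex I sgRNAs than among the controls. All 4 sgRNAs were below 0 for 10 genes (21.3%, against 9% of genes), namely NDUFA1, NDUFA2, NDUFA3, NDUFAF4, NDUFB5, NDUFB9, NDUFB11, NDUFS5, NDUFS6 and NDUFV3. All 4 were above 0 for NDUFA4L2 alone (2.13%, against 10.3%). The sgRNAs of a gene differed widely, by a median of 2.00 on the log2 scale between the lowest and the highest of the 4, against 2.14 over all genes.

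**Figure D2:**
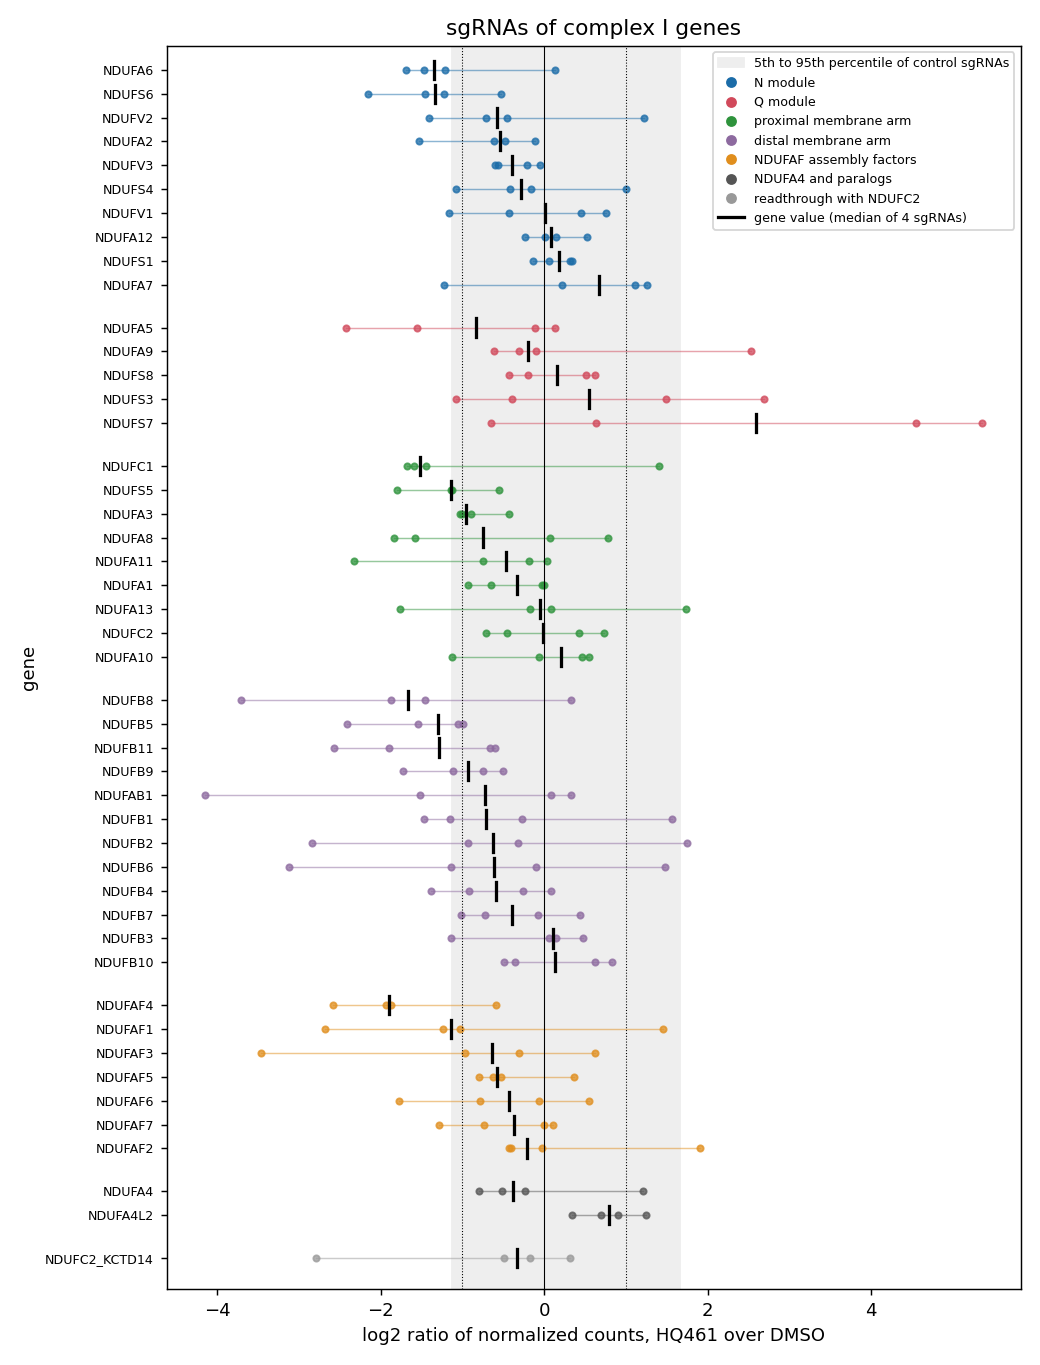
Each row is a complex I gene, each point 1 of its 4 sgRNAs and each black bar the gene value, on a horizontal axis of the log2 ratio of HQ461 over DMSO. Colors mark the structural module or role, the grey band runs from -1.12 to 1.66 (5th to 95th percentile of the control sgRNAs), and dotted lines mark 2-fold. Most bars lie left of 0 in the N module, in both membrane arm parts and among the NDUFAF genes, and in the Q module NDUFS7 reaches 2.59.

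The N module, at the tip of the matrix arm, holds the NADH site, the flavin and most of the iron-sulfur clusters. Its 10 genes had a median of -0.34, with 6 below 0, and 2 of them, both accessory subunits, were at least 2-fold lower. NDUFS6 (chr5:1801407-1816048, GRCh38), a zinc-binding subunit joined late in assembly, had 100, 109, 164 and 280 reads with DMSO and 48, 32, 25 and 70 for the same sgRNAs with HQ461. All 4 sgRNAs were lower, from -2.15 to -0.52, and the gene value of -1.34 corresponds to 2.53-fold. In sum its reads went from 653 (604 to 705) to 175 (150 to 203). NDUFA6 (chr22:42085526-42090772), an LYR-motif subunit that binds the acyl carrier protein, also had a value of -1.34. Its sgRNAs with 77, 122 and 170 reads with DMSO had 16, 36 and 42 with HQ461, and the sgRNA with 13 had 10. The last of these had a log2 ratio of 0.14, so the low value rests on the 3 more abundant sgRNAs.

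The core subunits of the N module ran from -0.58 to 0.19. NDUFV1, which binds NADH and the flavin, had a value of 0.01, from sgRNAs with 14, 24, 47 and 79 reads with DMSO and 17, 23, 24 and 24 with HQ461. With sgRNAs under a mean normalized count of 30 left out, 2 of its sgRNAs remained and its value was -0.80. NDUFS1, the largest core subunit, which carries several iron-sulfur clusters, had 11, 26, 45 and 51 reads with DMSO and 8, 23, 39 and 32 with HQ461. Its 4 sgRNAs lay close together, from -0.14 to 0.34, around a value of 0.19. NDUFV2, which carries a cluster off the main electron path, had a value of -0.58 with 3 sgRNAs below 0 and the other at 1.22. Its reads with DMSO were 34, 62, 63 and 171, and with HQ461 17, 26, 103 and 44. At the other end of the module NDUFA7, an accessory subunit, had a value of 0.67, from sgRNAs at -1.23, 0.22, 1.11 and 1.25. The other accessory genes of the module were NDUFA2 at -0.55, NDUFV3 at -0.39, NDUFS4 at -0.28 and NDUFA12 at 0.08.

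The Q module, which joins the N module to the membrane arm and forms the ubiquinone site, had a median of -0.02 over 6 genes, of which 3 were below 0. It held no gene at least 2-fold lower and the single gene at least 2-fold higher. Its median moved with the processing, to -0.68 under scaling by total counts, which moved the median of all genes by the same amount, and to 0.84 when scarce sgRNAs were left out. NDUFS7 (chr19:1383907-1395584), the core subunit that carries the last iron-sulfur cluster before ubiquinone, had 34, 171, 225 and 235 reads with DMSO and 37, 75, 3680 and 6684 with HQ461. The log2 ratios were 0.63, -0.66, 4.55 and 5.35, so 2 sgRNAs were far higher with HQ461 while the other 2 lay within the band of the controls. The gene value of 2.59, 6.03-fold, lies between these pairs and describes neither. The 2 high sgRNAs held 10364 of the 24259 reads of all complex I sgRNAs with HQ461, or 42.7% (42.1% to 43.3%, Clopper-Pearson). They were the only 2 of the 188 (1.06%) at a log2 ratio of 4 or more, a level reached by 0.818% of all targeting sgRNAs. Over the whole library 31 genes had at least 2 such sgRNAs, and 11 of these, NDUFS7 included, also had an sgRNA below 0. The 10 nearest library genes with a known position, 5 on each side of NDUFS7, had a median of -0.12 and values from -1.70 to 0.36. They held 0 sgRNAs at 4 or more. Over the whole library 173 genes were not placed.

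NDUFS3 (chr11:47579074-47584562), another core subunit of the Q module, showed a similar split on a smaller scale. Its sgRNAs had 40, 162, 184 and 370 reads with DMSO and 21, 317, 60 and 1656 with HQ461, at -0.39, 1.49, -1.08 and 2.69, and the gene value was 0.55. NDUFS8, a ferredoxin-like core subunit with a pair of iron-sulfur clusters, had a value of 0.16, from reads of 14, 25, 34 and 126 with DMSO and 7, 15, 34 and 135 with HQ461. The accessory subunits of the module were NDUFA5 at -0.84 and NDUFA9 at -0.20. An sgRNA of NDUFA9 stood at 2.53, from 12 to 52 reads, and the other 3 were below 0.

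**Figure D3:**
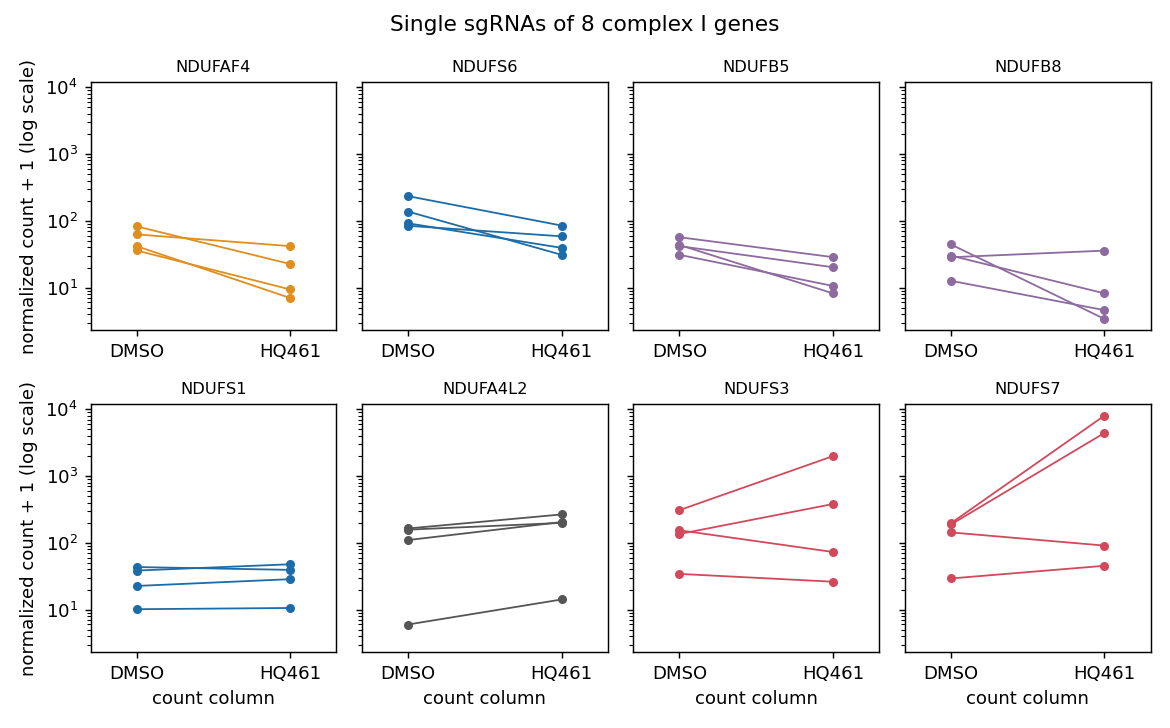
Each line is an sgRNA, drawn from its normalized count plus 1 with DMSO to that with HQ461 on a log axis shared by the panels. All 4 lines go down for NDUFAF4, NDUFS6 and NDUFB5 and 3 of 4 for NDUFB8, NDUFS1 stays nearly level, all 4 lines go up for NDUFA4L2, and NDUFS3 and NDUFS7 each have 2 lines that go well up beside others that do not.

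Over both matrix-arm modules, the 7 core subunits had a median of 0.16, with 2 below 0 and none at least 2-fold lower. For so few genes, at the all-gene share of 7.69%, the last count says little. The 30 accessory subunits of both arms, with 9 genes of the proximal and 12 of the distal membrane arm, had a median of -0.60. Of these 30, 25 were below 0 and 7 (23.3%) at least 2-fold lower, against 51.3% and 7.69% of all genes. All core genes here are of the matrix arm, so core against accessory is mixed with the arm. Of the 28 core sgRNAs 4 (14.3%) lay under the 5th percentile of the controls, and of the 120 accessory sgRNAs 37 (30.8%). Over all targeting sgRNAs the share was 15.4%, near that of the core. The median level with DMSO was 46.7 for the core genes and 62.9 for the accessory genes, and the part of level was not tested. The difference between the groups was not tested, since no replicate columns exist. The core median was 0.51 without the lowest sgRNA of every gene and -0.39 without the highest, when the all-gene median moved to 0.27 and -0.32, so its sign turned with single sgRNAs.

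The membrane arm carries the proton channels, and all of its targeted subunits are accessory. The proximal part had 9 genes with a median of -0.46, 8 of them below 0. Of the 9, 2 (22.2%) were at least 2-fold lower, against 7.69% of all genes. NDUFC1 (chr4:139289917-139302551), a small single-pass membrane subunit, had 44, 50, 55 and 104 reads with DMSO and 9, 11, 102 and 26 with HQ461. Of its sgRNAs 3 lay between -1.67 and -1.44 and the other was higher, at 1.40, which left the gene value at -1.52 but brought the ratio of summed reads to -0.25 (-0.55 to 0.05). NDUFS5 (chr1:39026350-39034615), an intermembrane-space subunit with a twin CX9C fold, had all 4 sgRNAs below 0, at 8, 11, 47 and 58 reads with DMSO and 1, 3, 22 and 18 with HQ461, and a value of -1.13. NDUFA3 followed at -0.96 with all 4 sgRNAs below 0, from -1.03 to -0.43. The others were NDUFA8 at -0.75, NDUFA11 at -0.46, NDUFA1 at -0.33, NDUFA13 at -0.05, NDUFC2 at -0.02 and NDUFA10 at 0.20. NDUFA13 is also known as GRIM-19, a protein linked to cell death.

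The distal part of the membrane arm had the lowest median of the modules, -0.67 over 12 genes, with 10 below 0 and 3 at least 2-fold lower. Of its 48 sgRNAs 17 (35.4%) lay under the 5th percentile of the controls and 1 over the 95th. The shares over all targeting sgRNAs were 15.4% and 9.64%. NDUFB8 (chr10:100523729-100529923), a subunit whose protein is lost readily when the complex does not assemble, had 14, 33, 35 and 52 reads with DMSO and 3, 29, 6 and 2 with HQ461. Of its sgRNAs 3 lay at or under -1.46 and the other was at 0.33, and the gene value was -1.67 (3.18-fold). NDUFB5 (chr3:179604794-179627647) had 36, 49, 51 and 67 reads with DMSO and 8, 16, 6 and 23 with HQ461. All 4 were lower, from -2.41 to -0.99, at a gene value of -1.30. NDUFB11 (chrX:47142216-47145491), an X-linked subunit, had 19, 23, 41 and 42 reads with DMSO and 8, 2, 7 and 19 with HQ461, again all lower, at a value of -1.28. Its summed reads were 125 (104 to 149) with DMSO and 36 (25.2 to 49.8) with HQ461, so the value rests on few reads. NDUFAB1, the mitochondrial acyl carrier protein, which also serves lipoate and iron-sulfur cluster synthesis, had a value of -0.72. An sgRNA of NDUFAB1 went from 20 reads to 0, for which the 1-sided 95% limit with HQ461 is about 3 reads. The most abundant went from 52 to 12, while those with 4 and 25 reads with DMSO had 3 and 22 with HQ461. The remaining genes of the distal part, all NDUFB subunits, ran from NDUFB9 at -0.93 through NDUFB1 (-0.71), NDUFB2 (-0.63), NDUFB6 (-0.62), NDUFB4 (-0.59) and NDUFB7 (-0.40) to NDUFB3 (0.11) and NDUFB10 (0.13).

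All 7 NDUFAF assembly factors had gene values below 0, against 51.3% of all genes, with a median of -0.57. At least 2-fold lower were 2 of the 7 (28.6%), against 7.69% of all genes. NDUFAF4 (chr6:96889315-96897891), which acts with NDUFAF3 on the early Q module intermediate, had the lowest value of the 47 genes, -1.90 (3.74-fold). Its sgRNAs had 42, 49, 74 and 98 reads with DMSO and 7, 5, 34 and 18 with HQ461, at -1.94, -2.58, -0.58 and -1.87. In sum these were 263 (232 to 297) and 64 (49.3 to 81.7) reads. NDUFAF1 (chr15:41387353-41403026), a member of the mitochondrial complex I intermediate assembly (MCIA) complex that builds the proximal membrane arm, had a value of -1.13. Its sgRNAs with 22, 25 and 69 reads had 6, 2 and 23 with HQ461, but the other went from 23 to 45, and the ratio of summed reads was -0.34 (-0.77 to 0.07). NDUFAF3 had a value of -0.64, with reads of 12, 72, 75 and 171 with DMSO and 0, 77, 42 and 60 with HQ461. Further up were NDUFAF5, a hydroxylase of NDUFS7, at -0.57, NDUFAF6 at -0.43, NDUFAF7, a protein methyltransferase, at -0.37, and NDUFAF2, a late factor of N module assembly, at -0.21. NDUFAF2 had 51, 200, 231 and 287 reads with DMSO and 26, 105, 158 and 751 with HQ461, so 3 sgRNAs lay below 0 and the other at 1.91. Its ratio of summed reads was therefore above 0, at 0.96 (0.83 to 1.10), and that of NDUFAF6 was 0.11 (-0.06 to 0.29).

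Complex I assembly factors whose names do not begin with NDUF were of like values at a higher level. Of 12 such genes 11 were below 0, the median was -0.61 and 2 (16.7%) were at least 2-fold lower. Over all genes these shares were 51.3% below 0 and 7.69% at least 2-fold lower. Their median level with DMSO was 112 normalized counts, nearer to the 130 of all genes than that of the complex I genes. ACAD9, an acyl-CoA dehydrogenase that works in the MCIA complex, was the lowest at -1.69, with all 4 sgRNAs between -1.95 and -0.86. Its summed reads were 589 with DMSO and 151 with HQ461. TIMMDC1, a membrane arm factor, was at -1.22, also with 4 of 4 sgRNAs below 0. ECSIT (-0.71), TMEM186 (-0.44) and TMEM126B (-0.45), which belong to the same MCIA machinery, were below 0 as well. COA1, also a component of the MCIA complex and tied to complex IV assembly too, was the highest of the list at 0.35, with 1 of its 4 sgRNAs below 0. NDUFAF8, listed under its older symbol C17orf89, was at -0.91.

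A few entries stand outside these modules. NDUFA4, named as a complex I subunit but now assigned to complex IV, had a value of -0.38, with reads of 18, 63, 118 and 206 with DMSO and 30, 37, 57 and 82 with HQ461. Its paralog NDUFA4L2 (chr12:57234903-57240762), which is induced by hypoxia and is called COXFA4L2 in RefSeq, had 6, 131, 188 and 196 reads with DMSO and 11, 170, 165 and 221 with HQ461. It was the second highest of the 47 genes, at 0.80, with all 4 sgRNAs above 0 from 0.34 to 1.24 and within the band of the controls. Under scaling by total counts the value of NDUFA4L2 was 0.11. NDUFC2_KCTD14, a readthrough transcript that shares its locus with NDUFC2, had a value of -0.33, with sgRNAs from -2.79 to 0.32. Without NDUFA4 and NDUFA4L2 the median of the genes was -0.46.

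Other parts of oxidative phosphorylation differed among themselves. The background over all genes was 7.69% at least 2-fold lower and 9.01% at least 2-fold higher. Complex II, which feeds electrons from succinate, had a median of -0.92 over 7 genes, from SDHC at -1.58 to its assembly factor SDHAF2 at 1.90. Complex III, which takes electrons from ubiquinol, had a median of 0.27 over 15 genes, from UQCC1 at -0.68 to UQCRQ at 1.23, with none at least 2-fold lower and 2 at least 2-fold higher. Complex IV, cytochrome c oxidase, had a median of -0.26 over 31 genes with 5 at least 2-fold lower and 1 higher, from COX17 at -2.03 to COA3 at 2.28. Complex V, the ATP synthase, had a median of -0.25 over 21 genes with 3 lower and 2 higher, from ATP5O at -1.55 to ATP5J at 2.00. The 12 genes of the mobile electron carriers and ubiquinone synthesis had a median of -0.69 with 3 at least 2-fold lower, from COQ2 at -1.67 to ADCK3 at 0.58. The 77 mitochondrial ribosomal protein genes, needed to translate the core subunits of the membrane arm, had a median of -0.39 with 10 lower and 1 higher, from MRPL37 at -2.93 to MRPL36 at 1.19. The complex I median of -0.43 lay within the range of these lists. Complex III, at a DMSO level of 57.9, close to that of complex I, had its median on the other side of 0. These differences between lists, and the part of level in them, were not tested.

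**Figure D4:**
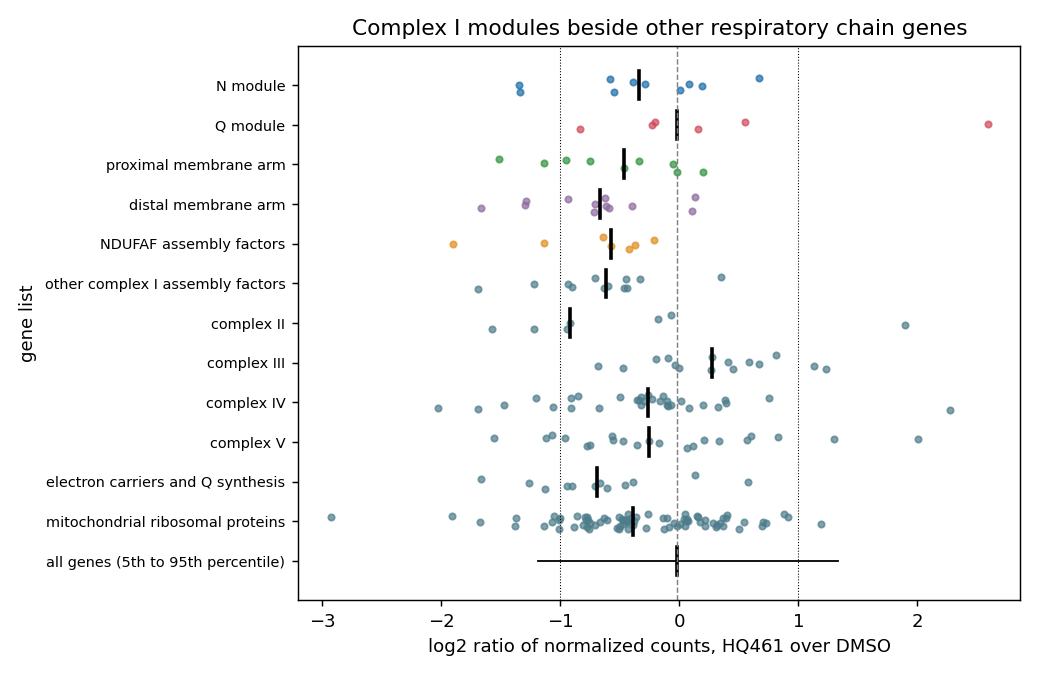
Each point is a gene, in rows by complex I module, assembly factor list or other mitochondrial list, on a horizontal axis of the log2 ratio of HQ461 over DMSO (vertical offsets only separate points). Black bars are medians, the bottom row gives the median and the 5th to 95th percentile of all genes, the dashed line is the all-gene median of -0.02 and dotted lines mark 2-fold. The bars of both membrane arm parts and of both assembly factor lists lie between -0.67 and -0.46, and that of complex III lies at 0.27.

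The summed reads gave another direction than the medians. All complex I sgRNAs together had 19231 reads with DMSO (0.133% of the column) and 24259 with HQ461 (0.150%), a log2 ratio of 0.86 after scaling. Without the 2 high NDUFS7 sgRNAs the sums were 18771 and 13895, and the ratio was 0.09 (0.06 to 0.12). Over all targeting sgRNAs the same ratio of sums was 0.70 and over the controls 0.44. The part of sgRNAs that are far higher with HQ461 in these sums was not tested. Neither of these sums had its own high sgRNAs removed, so the ratio of 0.09 is not on the same footing, and with every sgRNA kept the complex I sum stood above both. The share of all genes at least 2-fold higher depended on 2 chromosome regions. Without genes of 11q and chromosome 17 it was 5.49% in place of 9.01%. Of the complex I genes 4 lie on 11q (NDUFC2, NDUFC2_KCTD14, NDUFS8 and NDUFV1), none of them past 2-fold, and none was placed on chromosome 17. The other 43 complex I genes had a median of -0.55, against -0.08 for the genes left. They held the same 9 genes at least 2-fold lower and the same 1 higher. Of all genes left, 8.33% were at least 2-fold lower. SDHAF2, the highest gene of complex II, lies on 11q, and COA3, the highest of complex IV, on chromosome 17.

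How many of the 9 lower genes stayed at least 2-fold lower depended on the treatment of scarce sgRNAs. With sgRNAs under a mean normalized count of 30 left out, only 129 of the 188 complex I sgRNAs remained, 2 genes (NDUFAB1 and NDUFB11) had none, and 4 of the 9 stayed at least 2-fold lower. These 4 were NDUFAF4 at -1.23, NDUFA6 at -1.47, NDUFB5 at -1.02 and NDUFS6 at its value of -1.34. NDUFAF4 and NDUFB5 were left with 2 sgRNAs each and NDUFA6 with 3. Other members passed the limit only under this filter. In all, 7 of the 45 genes with an sgRNA left were at least 2-fold lower, against 6.15% of all genes. NDUFB8, left with 1 sgRNA, was then at 0.33, and NDUFAF1, left with 2, at 0.21. The filter takes the mean of both columns, so an sgRNA that fell with HQ461 is left out more readily than an sgRNA that rose. An NDUFB8 sgRNA at 43.3 with DMSO and 2.40 with HQ461 was left out, while that at 27.5 and 34.8 stayed. The filtered values are thus not independent of the ratio. Of the 9, NDUFS6 alone kept all 4 of its sgRNAs, and all of them were below 0.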

How the data were processed

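Read counts per sgRNA were analyzed as deposited. The authors made these counts from the sequencing reads with MAGeCK 0.5.9.2, as the submitters' processing notes name it, and did not normalize them. The labels assign 2 libraries to each of the 2 columns, HQ461 and DMSO. Of 77441 sgRNAs, 273 at 0 in both columns were removed, leaving 76171 that target a gene and 997 controls. Ratios were computed in Python 3.11.15 with numpy 2.4.6, pandas 2.3.3 and scipy 1.17.1, and the calculation was tested on simulated counts. Alternatives covered the scaling (total counts, control sgRNAs, TMM of edgeR 4.0.16), the pseudocount, a count filter, the value of a gene, single sgRNAs, left-out members and the fold. Gene positions came from RefSeq on GRCh38.p14, with 46 of 47 complex I genes placed. The members and gene lists were chosen with earlier results of these data known. Genes described in full were the core subunits, the NDUFAF genes, NDUFA4 and its paralog, and members at -1 or lower or at 0.5 or higher, with the lowest and highest gene of other lists. The other members were named to account for each, and further details of them were picked after their values were seen. The values of 1 gene are not reported here, although it entered the counts and medians.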

Additional observations from a re-analysis of the deposited data

How the results depend on the processing

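No paired analysis was possible because each condition has a single column of counts. The difference between the complex I median and the median of all genes, -0.40, lay between -0.51 (summed counts) and -0.23 (sgRNAs under a mean count of 30 left out) under every alternative run on it. Scaling by total counts moved the median of all genes by -0.68. The complex I median was then -1.10, with 29 genes at least 2-fold lower (32.1% of all genes), and the medians were -1.01 for the N module, -0.68 for the Q module, -1.13 for the proximal and -1.31 for the distal membrane arm, -1.25 for the NDUFAF genes and -0.50 for the core subunits. With sgRNAs under a mean count of 30 left out, 3 of the 45 remaining genes were at least 2-fold higher, against 10.8% of all genes. This filter uses counts that also enter the ratio. The Q module was then at 0.84, the proximal arm at -0.023, NDUFAF1 at 0.21 and NDUFB8 at 0.33. With summed counts 2 complex I genes were at least 2-fold higher, against 18.1% of all genes. The Q module was at 0.25 with the mean over sgRNAs and at 0.36 with summed counts. NDUFAF2 was then above 0 under both, at 0.26 and 0.96, and NDUFAF6 at 0.11 with summed counts. Without the lowest sgRNA of every gene (all genes moved by 0.29) the complex I median was -0.11. At least 2-fold higher were then 3 genes, against 18.2% of all genes. The medians were 0.61 for the Q module, -0.024 for the proximal arm, -0.26 for the distal arm and 0.51 for the core. Without the highest sgRNA of every gene (all genes moved by -0.29) the complex I median was -0.73. At least 2-fold lower were then 17 genes and higher 0, against 17.4% and 5.21% of all genes. The medians were -0.35, -0.74, -1.13 and -0.39 for the same lists. Without NDUFS7, an alternative chosen after seeing the data, 0 genes were at least 2-fold higher, against 9.01% of all genes. At 1.5-fold 19 genes were lower and 3 higher, against 19.4% and 19.3% of all genes. Of the 9 genes at least 2-fold lower, 7 stayed so with a pseudocount of 5 (not NDUFS5 and NDUFAF1) and 6 with summed counts (not NDUFC1, NDUFS5 and NDUFAF1). Leaving out NDUFC2_KCTD14, also chosen after seeing the data, changed no count. The 239 values of the 24 genes named by the rule were set against the counting interval of each gene's ratio of summed reads. Of these values, 166 moved by less than the distance from the middle of that interval to its ends, and 71 by more. The 71 include every value under scaling by total counts, which moved all genes. The other 2, given above for NDUFAF1 and NDUFB8, turned the sign of a gene past 2-fold.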
